A study of Caenorhabditis elegans with 20 samples.

Results

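The genes named math- and bath- in Caenorhabditis elegans encode proteins with a MATH domain (meprin and TRAF homology). The bath- proteins also carry a BTB domain. All genes in the deposited tables whose WormBase symbol is math- or bath- followed by a number were taken, which gave 73 of 46778 genes, 37 of them math- and 36 bath-. After a filter on low levels 59 members were tested, 24 math- and 35 bath-, among 15737 genes. The other 14 were bath-33 and 13 math- genes. Of these, math-25 had no read in any library and the rest held between 1 and 110 reads summed over 20 libraries.

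A MATH domain binds other proteins, and many BTB domains bind Cullin 3. Proteins with both can serve as adaptors that bring substrates to Cullin 3 ubiquitin ligases, which mark proteins for degradation. The best studied example in this nematode is MEL-26, which targets the katanin subunit MEI-1 for removal once meiosis is complete and whose gene the rule on symbols leaves out. In humans the same domain pair is found in SPOP. The family has expanded in nematodes, and most of its members have no assigned substrate. A member with a known role of another kind is MATH-33, the relative of the human deubiquitylase USP7, which acts on the transcription factor DAF-16.

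RNA of day 1 adults was profiled in 5 strains, with 4 libraries per strain. They were N2 wildtype, the progranulin null CF3050 pgrn-1(-), and AWK33, AWK43 and AWK107, which carry pgrn-1(-) together with granulin 1(+), granulin 2(+) and granulin 3(+), respectively. Progranulin is a secreted precursor that is cut into granulins, and the series compared the transcriptomes of animals that have a single granulin and no progranulin. The null and the 3 granulin strains therefore share the pgrn-1(-) allele. The promoter of the granulin transgenes is not stated in these sources. Each granulin was represented by 1 strain, so the granulin cannot be told apart from other features of the strain that carries it. Animals were synchronised by egg lay and had no further treatment.

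Libraries held 48279370 to 128776517 reads. The pgrn-1 gene had 527 to 871 reads per library in wild type and 6 to 32 in the null, and 118 to 1035 CPM, the read count relative to library size, in the granulin strains. Whether libraries of 1 strain were grown as separate cultures is not stated. The p-values then reflect only how these samples spread, which may be technical. Each sample's code starts with a letter that no source explains. The null and granulin 2 have E to H, and the other 3 strains have A to D. If they mark batches, the batch cannot be told apart from the strain in any comparison between those sets. The comparisons within a set are granulin 2 against the null, granulin 1 or 3 against wild type, and granulin 3 against 1. For each library, the deviations of protein-coding genes from their own means over all 20 libraries were regressed on log2 exon length. The slope is therefore relative to the average of the series, and some libraries must fall below 0. It was negative in 7 libraries. It was -0.82 log2 units per doubling of length in granulin 1 replicate 3, -0.39 in granulin 2 replicate 2, -0.35 in granulin 3 replicate 2, -0.27 in null replicate 1 and -0.25 in granulin 3 replicate 3, the 5 lowest, and -0.22 in granulin 2 replicate 3 and -0.01 in wild-type replicate 4. Ribosomal RNA held 44.8% of the reads of wild-type replicate 4, 52.7% of granulin 2 replicate 3 and between 0.450% and 25.9% elsewhere. In whole-animal RNA, fewer cells of a type and less RNA per cell cannot be told apart.

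Most members were transcribed at low levels in wild type. Mean levels reached 100 CPM in 4 members, lay from 10 to 100 CPM in 10, from 1 to 10 CPM in 28 and under 1 CPM in 31. Per kilobase of exon, bath-42 was highest at 132 ± 57.8 CPM per kb (SD, n = 4), followed by bath-40 at 110.3 ± 43.1, math-33 at 87.1 ± 26.7, bath-44 at 71.5 ± 37.3 and bath-41 at 64.9 ± 27.9 CPM per kb. The ranges of each neighbouring pair in this order overlapped. Together these 5 genes held 77.9% of the CPM of all members in wild type. The next gene in the order, bath-15, named after its value was seen, stood at 27.2 ± 2.54 CPM per kb.

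None of the 5 abundant genes was called in any comparison or by the F test. A call is a Benjamini-Hochberg adjusted p under 0.05 in limma over all 15737 genes. Levels of math-33 were 438, 441, 391 and 202 CPM in the 4 wild-type libraries and 110.5, 379, 416 and 372 CPM in the null. In granulin 1 they were 411, 316, 22.9 and 405 CPM, in granulin 2 404, 84.0, 143 and 447 CPM and in granulin 3 369, 63.6, 103 and 363 CPM. Every strain had at least 1 library far below the rest, so that the 5 strains overlapped. The libraries with the 5 lowest length slopes were among the low ones. Levels of bath-40 were 199.8, 216, 168 and 72.8 CPM in wild type and 109.7, 18.5, 34.3 and 164 CPM in granulin 2, where wild-type replicate 4 and granulin 2 replicates 2 and 3 were again low. The range of bath-42 was 81.5 to 305 CPM in wild-type libraries, and in null libraries it was 126 to 258 CPM. Granulin 1 had 36.8 to 298 CPM, granulin 2 140.1 to 209.9 CPM and granulin 3 155 to 306 CPM. All 5 strains overlapped in bath-42 as well. The libraries low in math-33 were also low in 19 oocyte and eggshell markers. Their sum was 5660 CPM in granulin 1 replicate 3, and 3527 and 5704 CPM in granulin 2 replicates 2 and 3. It was 3415 and 7015 CPM in granulin 3 replicates 2 and 3, 7150 in null replicate 1 and 8061 in wild-type replicate 4. The other libraries held 16691 to 29363 CPM. For 12 germline markers the sums were 504 to 2309 CPM and 3425 to 5713 CPM. The part of the length slope or of these tissues in the levels was not tested.

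**Figure D1:**
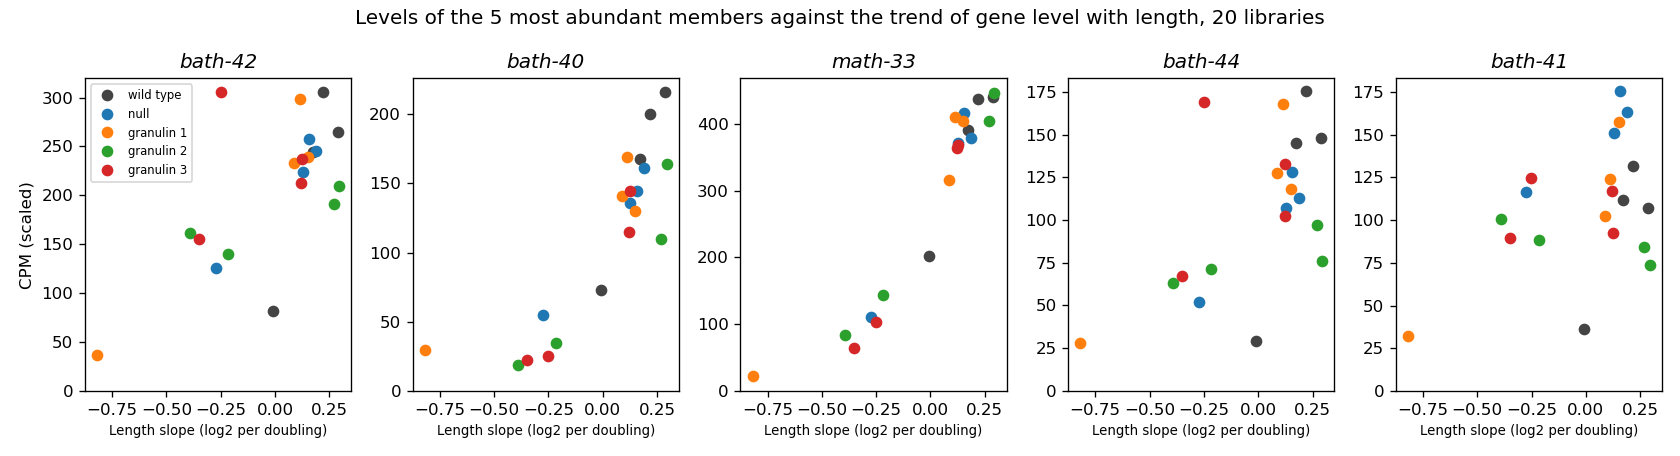
Levels of the 5 members with the highest wild-type level per kilobase (y axis, scaled CPM) against the length slope of each of 20 libraries. The slope is that of gene level, relative to the gene's mean over all libraries, on exon length (x axis, log2 units per doubling of length). Each point is 1 library, coloured by strain. The libraries with slopes from -0.82 to -0.25 held 22.9 to 110.5 CPM of math-33, below every library with a slope above 0.

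Of the 73 members 61 lay on chromosome II, 5 on chromosome I, 3 each on III and V and 1 on IV (genome build ce11). From math-34 to math-18 the left end of chromosome II held 49 members. Runs were defined as members with no more than 5 other protein-coding genes between them. There were 7 runs of 2 or more members, which held 55 in all. The longest, from math-15 to math-1 at II:1866381-2046656, had 32 members and 15 other genes in 180.3 kb, and 20 of its members were tested. A run from bath-28 to bath-9 at II:3343731-3378834 had 7 members. The abundant genes bath-40, bath-41, bath-42 and math-33 lay alone on chromosomes I, III and V, and bath-44 lay alone in the middle of chromosome II. Reads of near-identical copies can be split between genes in counting, and the handling of such reads is not stated in these sources. The annotated exons and introns of math-3 and math-26 share 2858 bases on the same strand, and those of bath-27 and lido-14 share 1117.

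Across the 5 strains 21 of the 59 tested members (35.6%) were called by the F test for any difference, where 21.5% of all genes tested were called. In the 10 pairwise comparisons 28 members had at least 1 call, 12 math- and 16 bath-, and 31 had none. The 28 are 47.5% of tested members, against 31.3% of all genes. Against the null, granulin 1 had 3 calls, all higher (5.08% of tested members, against 0.47% of all genes). Granulin 2 had 17, with 9 higher and 8 lower (28.8% against 21.7%). The higher ones were 15.3% of members, below the 17.5% of all genes, and the lower ones 13.6%, against 4.19%. Granulin 3 had 13, with 12 higher and 1 lower (22% against 12.7%). The null differed from wild type in 1 member, which was lower (1.69% against 0.197%). Of all genes 0.172% were called lower and 0.0254% higher in the null relative to wild type, and 0.432% higher and 0.0381% lower in granulin 1 than in the null. Against wild type, granulin 1 had 1 member called higher (1.69% against 0.324%), granulin 2 had 7 higher and 6 lower (22% against 18.4%) and granulin 3 had 6 higher (10.2% against 11.2%). The higher ones in granulin 2 against wild type were 11.9% of members, against 15.5% of all genes, and the lower ones 10.2%, against 2.82%. Their split was 6 to 2 without scaling beyond depth, 7 to 16 with a length-slope covariate and 6 to 11 without the 5 libraries of lowest slope. These comparisons share the null or the wild-type libraries. The higher calls of granulin 2 against the null and wild type include math-1 and math-48, and those of granulin 3 include math-1. These 2 genes entered the test only through granulin 2 and granulin 3, so a difference was built into their selection. The same holds for bath-46, also called higher, which entered through the 3 granulin strains only.

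Groups of libraries that did not overlap were counted as well, also where limma made no call. Shares are of both directions together. In the null against wild type the 4 libraries of each strain did not overlap in 5 higher and 4 lower members (15.3% of tested members, against 10.4% of all genes). Against the null the counts were 11 higher and 0 lower in granulin 1 (18.6% of members, against 4.55% of all genes). They were 10 higher and 10 lower in granulin 2 (33.9% against 30.3%) and 13 higher and 5 lower in granulin 3 (30.5% against 22.2%). Against wild type they were 2 higher and 0 lower in granulin 1 (3.39% against 4.15%). They were 7 higher and 8 lower in granulin 2 (25.4% against 21.6%) and 7 higher and 0 lower in granulin 3 (11.9% against 15.1%). Between granulin 2 and 1 they were 3 higher and 13 lower (27.1% against 19.6%). Between granulin 3 and 1 they were 1 higher and 1 lower (3.39% against 8.04%), and between granulin 3 and 2 12 higher and 3 lower (25.4% against 13.3%).

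The share of members called was near that of all genes in granulin 3 against wild type. In granulin 2 against the null, the lower calls were mostly bath- genes, 7 bath- and 1 math-, and the higher ones mostly math- genes, 6 math- and 3 bath-. Among protein-coding genes alone the split of this comparison was 6 higher and 9 lower. In granulin 3 against the null the higher calls were 7 math- and 5 bath- genes and the single lower one was a bath- gene, where 11.2% and 1.57% of all genes were called higher and lower. The median log2 fold change over tested members was 0.44 in granulin 1, -0.16 in granulin 2 and 0.28 in granulin 3 against the null, beside 0.04, 0.04 and 0.07 over all genes. For the math- genes alone these medians were 0.78, 0.01 and 0.71, and for the bath- genes -0.04, -0.25 and 0.00.

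**Figure D2:**
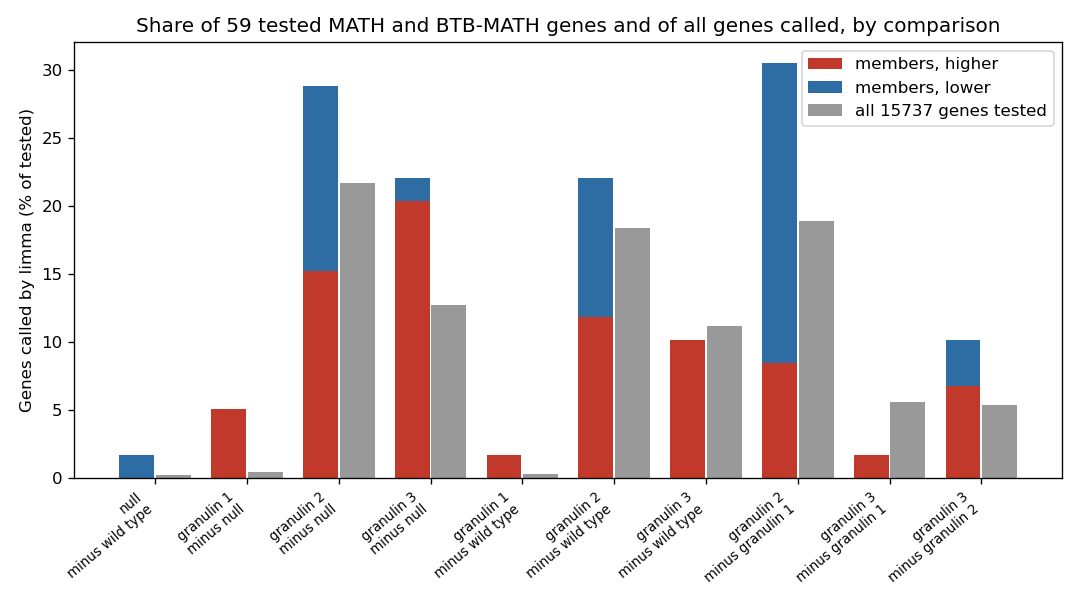
Share of the 59 tested MATH and BTB-MATH genes called by limma in each of 10 comparisons (red higher, blue lower, y axis in percent of genes tested), beside the share of all 15737 genes (grey). The members' bars reach 30.5% for granulin 2 minus granulin 1 and 28.8% for granulin 2 minus null, beside grey bars of 18.9% and 21.7%.

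The only member called in the null against wild type was bath-24, a BTB-MATH gene at chromosome II, 2044619 to 2045605, minus strand. Levels of bath-24 were 2.19, 3.23, 3.62 and 5.84 CPM in wild type and 1.05, 0.809, 0.635 and 0.853 CPM in the null. In the granulin 1 libraries they were 4.25, 5.72, 8.86 and 6.70 CPM, in granulin 2 3.06, 3.77, 3.59 and 2.66 CPM and in granulin 3 3.81, 5.28, 5.38 and 4.59 CPM. Every null library lay below every library of the other 4 strains. The null was lower than wild type, with a log2 fold change (± SE of the fit, n = 4 libraries per strain) of -2.05 ± 0.30 (limma adjusted p = 0.00185). Granulin 1 exceeded the null by 2.86 ± 0.30 (limma adjusted p = 9.9e-06), granulin 2 by 1.94 ± 0.30 (limma adjusted p = 5.79e-05) and granulin 3 by 2.48 ± 0.30 (limma adjusted p = 3.51e-05). None of the 3 granulin strains was called against wild type. Granulin 2 was lower than granulin 1 at -0.92 ± 0.30 (limma adjusted p = 0.0361). The call in the null against wild type was lost in fits without null replicate 2 (log2 fold change -1.86, limma adjusted p = 0.0824). The call between granulin 2 and 1 was lost in fits without granulin 1 replicate 2, 3 or 4 or granulin 2 replicate 1, 3 or 4 (log2 fold changes -0.75 to -0.97, limma adjusted p = 0.0551 to 0.0993). For bath-24 in the null against wild type, the call was also lost without scaling beyond depth and with the 2 strains alone (limma adjusted p = 0.054 to 0.365). For bath-24 in granulin 2 against granulin 1, the call was also lost without scaling beyond depth, with the 2 strains alone and without the 5 libraries of lowest slope (limma adjusted p = 0.0796 to 0.0877).

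A second gene, math-38, was higher in each of the 3 granulin strains than in both the null and wild type. It lies at chromosome II, 1577378 to 1579986, minus strand, and opens a run of 5 members. Levels of math-38 were 1.5, 0.556, 0.890 and 2.03 CPM in wild type and 1.01, 0.532, 0.457 and 1.15 CPM in the null. They were 5.20, 4.15, 9.10 and 3.25 CPM in granulin 1, 4.12, 4.12, 2.95 and 5.46 CPM in granulin 2 and 6.66, 4.32, 6.48 and 4.32 CPM in granulin 3. Wild type and null libraries overlapped, and all 12 libraries with a granulin lay above them. Against the null the log2 fold changes were 2.74 ± 0.41 (limma adjusted p = 0.00106) for granulin 1, 2.43 ± 0.41 (limma adjusted p = 0.000133) for granulin 2 and 2.82 ± 0.41 (limma adjusted p = 0.000196) for granulin 3. Against wild type they were 2.15 ± 0.41 (limma adjusted p = 0.0178), 1.84 ± 0.41 (limma adjusted p = 0.00199) and 2.23 ± 0.41 (limma adjusted p = 0.000619). The granulin 1 call against wild type was lost in fits without granulin 1 replicate 1 or wild-type replicate 2 or 3 (log2 fold changes 1.83 to 2.13, limma adjusted p = 0.065 to 0.0962). For math-38 in granulin 1 against the null, the call was lost with the 2 strains alone (limma adjusted p = 0.0685). For math-38 in granulin 1 against wild type, the call was also lost with the 2 strains alone and without the 5 libraries of lowest slope (limma adjusted p = 0.0756 to 0.517). The neighbouring protein-coding gene K05F6.10 was also called higher, by 2.38 (limma adjusted p = 0.0124), 2.55 (limma adjusted p = 0.000241) and 3.65 (limma adjusted p = 4.5e-05) in granulin 1, 2 and 3 against the null.

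Another pattern was that of math-44 (chromosome II, 1989310 to 1990535, plus strand), which was low in both the null and granulin 2. Levels of math-44 were 7.13, 5.99, 9.25 and 5.42 CPM in wild type, 1.85, 1.32, 1.49 and 1.28 CPM in the null and 1.09, 2.17, 1.65 and 0.875 CPM in granulin 2. In granulin 1 they were 6.21, 9.89, 28.8 and 6.09 CPM and in granulin 3 3.64, 7.07, 6.89 and 1.74 CPM. No library of the null or of granulin 2 reached the lowest wild-type or granulin 1 library. These 2 strains are also those with the letters E to H, so a batch marked by the letters cannot be told apart from the strains here. The null minus wild type value of -2.19 ± 0.47 was not called (limma adjusted p = 0.0674). Granulin 1 exceeded the null by 2.77 ± 0.47 (limma adjusted p = 0.00453) and granulin 3 by 1.5 ± 0.47 (limma adjusted p = 0.0415), with overlap in the second. Granulin 2 was below wild type at -2.30 ± 0.47 (limma adjusted p = 0.001) and below granulin 1 at -2.88 ± 0.47 (limma adjusted p = 0.000169). The granulin 1 call over the null was lost in fits without null replicate 2 (log2 fold change 2.64, limma adjusted p = 0.0606), and that of granulin 3 without granulin 3 replicate 1, 2 or 3 or null replicate 1, 2, 3 or 4 (log2 fold changes 1.25 to 1.60, limma adjusted p = 0.0522 to 0.198). For math-44 in granulin 1 against the null, the call was also lost with the 2 strains alone (limma adjusted p = 0.127). For math-44 in granulin 3 against the null, the call was also lost with no filter, with voom weights, with the 2 strains alone and without the 5 libraries of lowest slope (limma adjusted p = 0.0629 to 0.127).

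**Figure D3:**
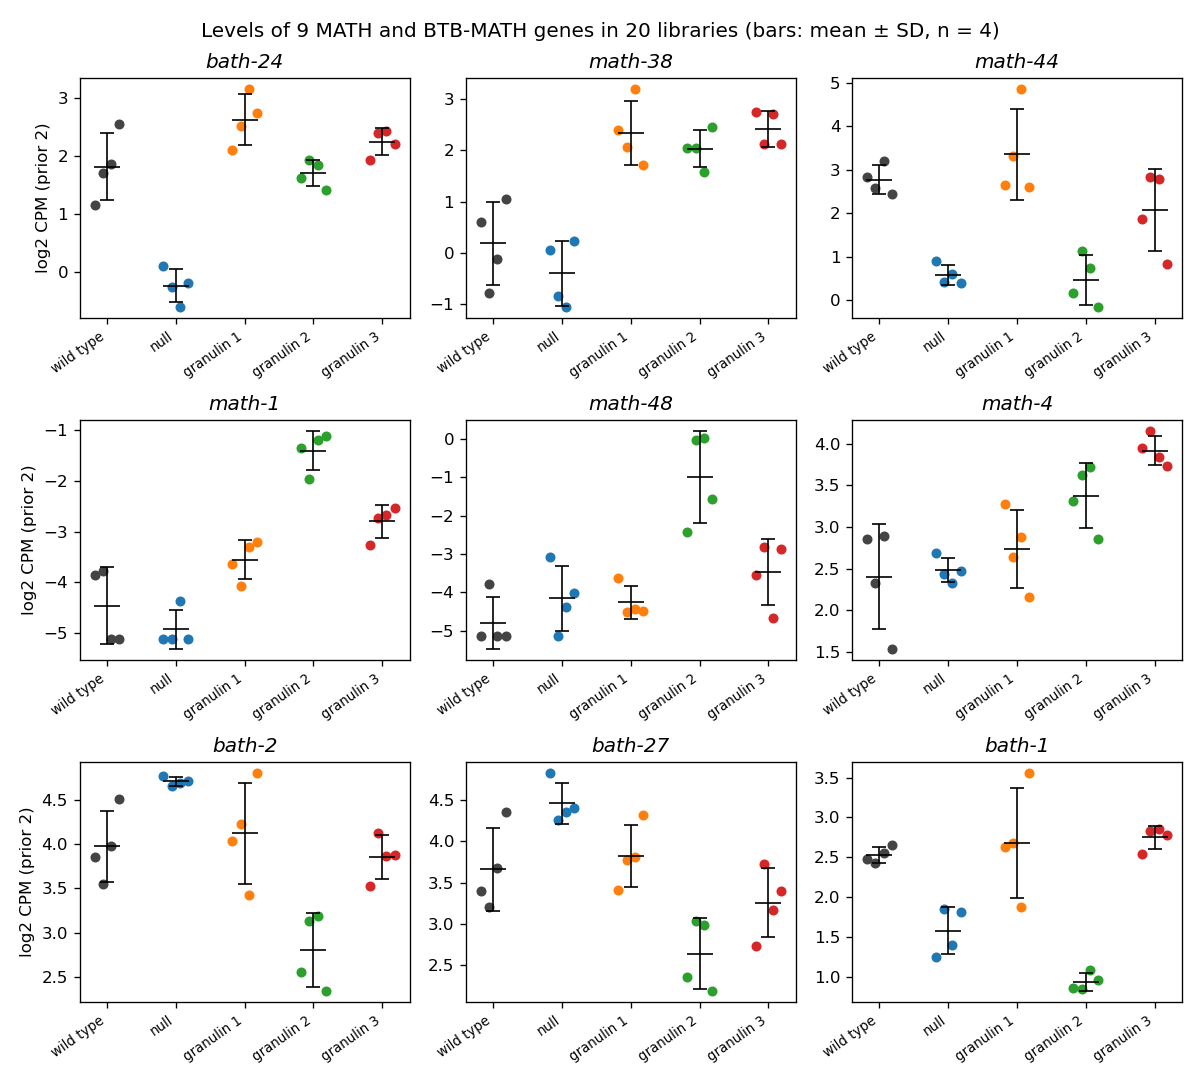
Levels of 9 members in 20 libraries (y axis, log2 CPM with a prior count of 2). Points are libraries, 4 per strain, and bars give the mean ± SD. The null libraries of bath-24 lie below those of every other strain, the 12 granulin libraries of math-38 lie above wild type and null, and math-44 is low in null and granulin 2.

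Markers of sperm moved with granulin 2 and granulin 3. Of 15 sperm genes 13 were tested, and 13 were called higher than the null in granulin 2 and 6 in granulin 3, with 0 called in the null against wild type. Their summed level was 2.59 to 4.67 CPM in wild type, 3.81 to 5.64 CPM in the null, 4.39 to 10.6 CPM in granulin 1, 43.8 to 68.7 CPM in granulin 2 and 11.3 to 50.6 CPM in granulin 3. The gene ssp-9 had no reads in wild type or the null, and each of the 15 had reads in granulin 1, 2 and 3. Of 12 markers of the hypodermis 6 were called higher than the null in granulin 2 (50%) and 4 in granulin 3 (33.3%). Of 10 embryonic markers (5 tested) 3 and 1 were higher, and of 12 neuronal markers 3 were higher (25%) and 1 lower in granulin 2. Of all genes 17.5% were called higher and 4.19% lower in granulin 2, and 11.2% higher in granulin 3. Against wild type 2 hypodermal markers were higher in granulin 2 (16.7%, against 15.5% of all genes) and 1 in granulin 3 (8.33%, against 10.7%). For the 5 embryonic markers these counts were 3 and 0, and 1 neuronal marker was higher and 1 lower in granulin 2. The summed level of the hypodermal markers was 489 to 954 CPM in the null, 512 to 1553 CPM in granulin 2 and 421 to 1302 CPM in granulin 3. None was at 0, and in wild type the sum was 742 to 2448 CPM. In the null, granulin 2 and granulin 3 the sum of the neuronal markers was 153 to 177, 155 to 266 and 150.0 to 219 CPM. That of the embryonic markers was 1.99 to 6.02, 5.21 to 9.65 and 3.84 to 6.40 CPM, with hlh-27 and med-1 at 0 in the null. In wild type these 2 sums were 208 to 264 CPM and 1.40 to 8.37 CPM. No germline, oocyte and eggshell, intestine or muscle marker was called in either strain against the null. The sums of the germline and of the oocyte and eggshell markers varied widely between replicates of a strain, as given above. The part of these cell types in the levels of the members described next, which were higher in granulin 2 or 3, was not tested.

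Several math- genes had almost no reads in wild type and the null and more in granulin 2, and in some cases granulin 3. The first is math-1 (chromosome II, 2046053 to 2046656, minus strand), at the end of the longest run and next to bath-24. Reads of math-1 were 2, 2, 0 and 0 in wild type, 0, 0, 1 and 0 in the null, 3, 2, 4 and 5 in granulin 1, 16, 34, 29 and 27 in granulin 2 and 4, 16, 12 and 20 in granulin 3. Its levels reached 0.230 to 0.437 CPM in granulin 2 and 0.0755 to 0.144 CPM in granulin 3, so the gene stayed far below 1 CPM everywhere. All granulin 2 libraries lay above all granulin 3 libraries, and both above the null. The null held 1 read in all, and the ratio of scaled reads was 81.0 in granulin 2 (95% counting interval 14.2 to 3230) and 31 in granulin 3 (5.33 to 1250). The gene entered the test only through libraries of granulin 2 (4) and granulin 3 (2), the strains where it was high, so that a difference was built into its selection. On the fitted scale, which understates changes of low genes, granulin 2 exceeded the null by 3.54 ± 0.39 (limma adjusted p = 2.48e-06) and granulin 3 exceeded it by 2.14 ± 0.39 (limma adjusted p = 0.00131). Against wild type the values were 3.07 ± 0.39 (limma adjusted p = 5.13e-06) and 1.67 ± 0.39 (limma adjusted p = 0.00566). Granulin 2 exceeded granulin 1 by 2.15 ± 0.39 (limma adjusted p = 0.000442), and granulin 3 was below granulin 2 at -1.40 ± 0.39 (limma adjusted p = 0.0413), a call that was lost in fits without granulin 3 replicate 1, 2 or 3 or granulin 2 replicate 1, 3 or 4 (log2 fold changes -1.24 to -1.44, limma adjusted p = 0.0766 to 0.113). For math-1 in granulin 3 against wild type, the call was lost without the 5 libraries of lowest slope (limma adjusted p = 0.0732). For math-1 in granulin 3 against granulin 2, the call was also lost without scaling beyond depth, with a prior count of 0.5, among protein-coding genes alone and without the 5 libraries of lowest slope (limma adjusted p = 0.122 to 0.271).

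The gene math-48 (chromosome II, 1945438 to 1946527, minus strand) was raised in granulin 2. Its reads were 0, 2, 0 and 0 in wild type, 8, 0, 1 and 2 in the null, 3, 1, 1 and 1 in granulin 1, 7, 140, 70 and 19 in granulin 2 and 3, 15, 1 and 15 in granulin 3. Like math-1, it entered the test only through libraries of granulin 2 (3) and granulin 3 (1). In CPM the granulin 2 libraries stood at 0.159, 0.945, 0.989 and 0.308, above every library of the other strains, and granulin 2 exceeded the null by 3.15 ± 0.58 (limma adjusted p = 0.000353) and granulin 1 by 3.26 ± 0.58 (limma adjusted p = 0.000353). Wild type held 2 reads in all, and the ratio of granulin 2 to wild type was 60.8 (95% counting interval 16.6 to 505), with a fitted log2 fold change of 3.79 ± 0.58 (limma adjusted p = 3.93e-05). Granulin 3 was below granulin 2 at -2.47 ± 0.58 (limma adjusted p = 0.014), a call lost in fits without granulin 3 replicate 3 or granulin 2 replicate 3 (log2 fold changes -2.07 to -2.13, limma adjusted p = 0.0649 to 0.0676). For math-48 in granulin 3 against granulin 2, the call was also lost without scaling beyond depth, with a prior count of 0.5, with the 2 strains alone and without the 5 libraries of lowest slope (limma adjusted p = 0.0585 to 0.171). Both neighbours of math-48, ZK250.14 and ZK250.2, were called higher in granulin 2 than in the null, by 3.90 (limma adjusted p = 1.49e-05) and 2.67 (limma adjusted p = 0.000161). Against wild type and granulin 1, where math-48 was also called, ZK250.14 was called higher, by 4.16 (limma adjusted p = 4.09e-06) and 3.99 (limma adjusted p = 2.17e-05), and ZK250.2 was not called, at -0.39 (limma adjusted p = 0.655) and -0.38 (limma adjusted p = 0.659).

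Another such gene, math-46, lies alone on chromosome I. Levels of math-46 were 0.0812, 0.0445, 0.182 and 0.0424 CPM in wild type, 0.0778, 0.0638, 0.0794 and 0.0328 CPM in the null and 0.249, 0.419, 0.579 and 0.356 CPM in granulin 2. In granulin 1 they were 0.0346, 0.0775, 0.38 and 0.0481 CPM and in granulin 3 0.113, 0.313, 0.409 and 0.144 CPM, where replicate 3 of granulin 1 and replicates 2 and 3 of granulin 3 reached the range of granulin 2. The gene entered the test through 1 library of wild type, 0 of the null and 1, 4 and 2 of granulin 1, 2 and 3. Granulin 2 exceeded the null by 2.20 ± 0.54 (limma adjusted p = 0.00466), wild type by 1.98 ± 0.54 (limma adjusted p = 0.0109) and granulin 1 by 1.78 ± 0.54 (limma adjusted p = 0.0237). The last call did not hold without granulin 1 replicate 1, 2 or 4 or granulin 2 replicate 3 (log2 fold changes 1.47 to 1.72, limma adjusted p = 0.0521 to 0.0813). Of the 3 bath- genes called higher in granulin 2 than in the null, bath-13 had the largest value. Levels of bath-13 were 0.264, 0.134, 0.324 and 1.02 CPM in wild type, 0.2, 0.213, 0.0993 and 0.0656 CPM in the null, 0.294, 0.264, 0.886 and 0.529 CPM in granulin 1, 1.45, 1.76, 1.48 and 1.36 CPM in granulin 2 and 0.566, 0.763, 0.409 and 0.454 CPM in granulin 3. Granulin 2 exceeded all other libraries, with log2 fold changes of 3.26 ± 0.49 (limma adjusted p = 4.24e-05) over the null, 2.08 ± 0.49 (limma adjusted p = 0.00342) over wild type and 1.71 ± 0.49 (limma adjusted p = 0.0165) over granulin 1. Granulin 3 exceeded the null by 1.81 ± 0.49 (limma adjusted p = 0.0173). The granulin 3 call did not hold without granulin 3 replicate 2 or null replicate 2, 3 or 4 (log2 fold changes 1.55 to 1.87, limma adjusted p = 0.0513 to 0.0687), and the granulin 2 call over granulin 1 without granulin 1 replicate 1 or 2 (log2 fold changes 1.49 to 1.53, limma adjusted p = 0.0507 to 0.0573). For math-46 and bath-13 in granulin 2 against granulin 1, the call was also lost without scaling beyond depth, among protein-coding genes alone and with the 2 strains alone (limma adjusted p = 0.0524 to 0.147).

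A pair of further genes were higher in both granulin 2 and granulin 3 than in the null. Reads of bath-46 were 3, 0, 6 and 9 in wild type, 10, 3, 4 and 4 in the null, 15, 20, 22 and 7 in granulin 1, 11, 44, 26 and 19 in granulin 2 and 26, 93, 28 and 81 in granulin 3. Its null libraries lay below those of granulin 2 and 3, while wild type ranged from 0 to 0.381 CPM. The gene entered the test through 3 libraries of granulin 1, 4 of granulin 2 and 4 of granulin 3. By the filter, applied before scaling, 0 libraries of wild type or the null counted, so a difference was built into its selection. The log2 fold change of bath-46 over the null was 1.63 ± 0.56 (limma adjusted p = 0.0439) in granulin 2 and 2.30 ± 0.56 (limma adjusted p = 0.00936) in granulin 3, and over wild type 2.23 ± 0.56 (limma adjusted p = 0.00961) in granulin 3. Leaving out any library of the pair ended the granulin 2 call: it was lost in fits without null replicate 1, 2, 3 or 4 or granulin 2 replicate 1, 2, 3 or 4 (log2 fold changes 1.39 to 1.75, limma adjusted p = 0.0536 to 0.155). The granulin 3 call over the null was lost in fits without null replicate 2 (log2 fold change 2.11, limma adjusted p = 0.0566). Reads of math-42 were 5, 6, 3 and 2 in wild type, 12, 1, 2 and 1 in the null, 12, 35, 14 and 8 in granulin 1, 19, 36, 21 and 4 in granulin 2 and 11, 53, 11 and 60 in granulin 3. It entered the test through 0 libraries of wild type, 1 of the null and 3, 3 and 4 of granulin 1, 2 and 3. A difference was thus partly built into its selection as well. Its null range overlapped those of granulin 2 and granulin 3, over which the log2 fold changes were 1.81 ± 0.54 (limma adjusted p = 0.0192) and 2.03 ± 0.54 (limma adjusted p = 0.0158). These calls were lost in fits without granulin 2 replicate 1 or 3 or null replicate 2 or 4 (log2 fold changes 1.48 to 1.68, limma adjusted p = 0.0564 to 0.101) and, for granulin 3, without granulin 3 replicate 4 or null replicate 2 or 4 (log2 fold changes 1.75 to 1.82, limma adjusted p = 0.0563 to 0.0913). For bath-46 in granulin 2 against the null, the call was also lost without scaling beyond depth, with a prior count of 0.5, with no filter, among protein-coding genes alone, with the letter as replicate block and without the 5 libraries of lowest slope (limma adjusted p = 0.0585 to 0.107). For bath-46 in granulin 3 against wild type, the call was lost with the 2 strains alone (limma adjusted p = 0.0648). For math-42 in granulin 2 against the null, the call was also lost without scaling beyond depth and among protein-coding genes alone (limma adjusted p = 0.0775 to 0.0947). The neighbouring gene T16A1.2 was called higher in the same comparisons, by 3.42 (limma adjusted p = 4.99e-05) and 1.97 (limma adjusted p = 0.0154).

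In granulin 3, math-4 and math-41 rose against both the null and wild type. Both had 57 reads or more in every library. Levels of math-4 (chromosome II, 1778772 to 1782574, minus strand) were 7.21, 5.01, 7.38 and 2.88 CPM in wild type, 6.40, 5.40, 5.0 and 5.53 CPM in the null and 9.65, 6.20, 7.34 and 4.44 CPM in granulin 1. In granulin 2 they were 9.87, 12.4, 13.2 and 7.19 CPM and in granulin 3 15.4, 17.7, 14.3 and 13.3 CPM. All 4 granulin 3 libraries lay above all other libraries. Granulin 3 exceeded the null by 1.44 ± 0.31 (limma adjusted p = 0.00362), wild type by 1.51 ± 0.31 (limma adjusted p = 0.0015) and granulin 1 by 1.18 ± 0.31 (limma adjusted p = 0.0263). The last was the only member called between granulin 3 and granulin 1 (1.69% of members, against 5.58% of all genes and 5.32% called higher), and it was lost in fits without granulin 3 replicate 1, 2 or 4 or granulin 1 replicate 2 or 4 (log2 fold changes 0.99 to 1.24, limma adjusted p = 0.0565 to 0.104). Granulin 2 exceeded the null by 0.90 ± 0.31 (limma adjusted p = 0.0412) and wild type by 0.97 ± 0.31 (limma adjusted p = 0.0288). These were lost in fits without null replicate 1, 2, 3 or 4 or granulin 2 replicate 1, 2 or 3 (log2 fold changes 0.67 to 0.96, limma adjusted p = 0.0537 to 0.205) and without wild-type replicate 2 or 4 or granulin 2 replicate 1, 2 or 3 (log2 fold changes 0.68 to 1.00, limma adjusted p = 0.052 to 0.1), respectively. For math-4 in granulin 3 against granulin 1, the call was also lost without scaling beyond depth, with no filter, among protein-coding genes alone, with the 2 strains alone and without the 5 libraries of lowest slope (limma adjusted p = 0.058 to 0.195). For math-4 in granulin 2 against the null, the call was also lost without scaling beyond depth, with no filter, among protein-coding genes alone and without the 5 libraries of lowest slope (limma adjusted p = 0.0768 to 0.46). For math-4 in granulin 2 against wild type, the call was also lost without scaling beyond depth, with no filter, among protein-coding genes alone, with the 2 strains alone and without the 5 libraries of lowest slope (limma adjusted p = 0.0626 to 0.23). Levels of math-41 (chromosome II, 1824629 to 1830228, plus strand) were 3.88, 2.47, 2.99 and 2.41 CPM in wild type, 3.52, 2.49, 2.42 and 2.31 CPM in the null and 7.72, 7.27, 7.24 and 9.73 CPM in granulin 3, with no overlap. Granulin 1 ranged from 3.30 to 11.2 CPM and granulin 2 from 3.39 to 4.73 CPM. Granulin 3 exceeded the null by 1.57 ± 0.31 (limma adjusted p = 0.00226) and wild type by 1.45 ± 0.31 (limma adjusted p = 0.00258). The F-box gene fbxc-19, next to math-41, was called higher than the null too, by 1.91 (limma adjusted p = 0.0169), but not higher than wild type, at 1.20 (limma adjusted p = 0.181).

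The first gene of the longest run, math-15, was also higher in granulin 3. Levels of math-15 were 0.0812, 0.0890, 0.142 and 0.169 CPM in wild type, 0.211, 0.106, 0.159 and 0.131 CPM in the null and 0.453, 1.17, 0.678 and 0.483 CPM in granulin 3. In granulin 1 they were 0.225, 0.264, 2.19 and 0.320 CPM, with replicate 3 above every granulin 3 library, and in granulin 2 0.294, 0.412, 0.339 and 0.130 CPM. The gene entered the test through 0 libraries of wild type, 1 of the null and 4, 3 and 4 of granulin 1, 2 and 3. A difference was thus partly built into its selection. Granulin 3 exceeded the null by 1.94 ± 0.55 (limma adjusted p = 0.0232) and wild type by 2.22 ± 0.55 (limma adjusted p = 0.00816), and the call over the null was lost in fits without granulin 3 replicate 2 or null replicate 2, 3 or 4 (log2 fold changes 1.65 to 1.97, limma adjusted p = 0.0514 to 0.135).

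A group of bath- genes moved the other way and was lower in granulin 2 than in the null. The largest drop against the null was that of bath-2 (chromosome II, 1921433 to 1922765, minus strand). Levels of bath-2 were 14.5, 11.7, 15.8 and 22.7 CPM in wild type and 27.4, 25.2, 25.9 and 26.4 CPM in the null. They were 16.4, 18.7, 10.7 and 27.9 CPM in granulin 1, 5.82, 8.76, 9.08 and 5.04 CPM in granulin 2 and 11.5, 17.5, 14.6 and 14.7 CPM in granulin 3. The null had the narrowest range, and granulin 2 lay below every other library. The log2 fold change of granulin 2 was -1.91 ± 0.29 (limma adjusted p = 5.08e-05) against the null, -1.17 ± 0.29 (limma adjusted p = 0.00556) against wild type and -1.32 ± 0.29 (limma adjusted p = 0.00243) against granulin 1. Granulin 3 exceeded granulin 2 by 1.05 ± 0.29 (limma adjusted p = 0.0392), a call lost in fits without granulin 3 replicate 2, 3 or 4 or granulin 2 replicate 1 or 4 (log2 fold changes 0.90 to 1.05, limma adjusted p = 0.0526 to 0.127). Next in size was bath-27 (chromosome II, 3359139 to 3361451, plus strand), at 10.5, 9.23, 12.7 and 20.5 CPM in wild type, 28.2, 19.1, 20.3 and 21.1 CPM in the null, 10.6, 13.6, 14 and 19.9 CPM in granulin 1, 5.10, 8.17, 7.90 and 4.55 CPM in granulin 2 and 6.60, 13.2, 8.99 and 10.5 CPM in granulin 3. Granulin 2 was below the null at -1.81 ± 0.30 (limma adjusted p = 0.000128), below granulin 1 at -1.18 ± 0.30 (limma adjusted p = 0.00793) and below wild type at -1.02 ± 0.30 (limma adjusted p = 0.0209), the last lost in fits without wild-type replicate 4 or granulin 2 replicate 1 or 4 (log2 fold changes -0.79 to -0.92, limma adjusted p = 0.0677 to 0.0719). It was the single member called lower in granulin 3 than in the null, at -1.20 ± 0.30 (limma adjusted p = 0.0112), and this was lost in fits without granulin 3 replicate 1 (log2 fold change -1.03, limma adjusted p = 0.0535). For bath-2 in granulin 2 against wild type, the call was lost without scaling beyond depth (limma adjusted p = 0.186). For bath-2 in granulin 3 against granulin 2, the call was also lost with the 2 strains alone and without the 5 libraries of lowest slope (limma adjusted p = 0.0585 to 0.12). For bath-27 in granulin 2 against wild type, the call was also lost without scaling beyond depth and with the 2 strains alone (limma adjusted p = 0.0504 to 0.341). For bath-27 in granulin 3 against the null, the call was also lost without scaling beyond depth (limma adjusted p = 0.292). Reads of bath-27 may be shared with lido-14, which overlaps it on the same strand.

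Granulin 2 was also lower than the null in bath-3, bath-4 and bath-5, which lie in the longest run with bath-2. Levels of bath-5 were 33.9, 24.3, 26.7 and 28.6 CPM in the null and 8.63, 15.5, 14.9 and 8.10 CPM in granulin 2, with no overlap, and 15.4 to 23.5 CPM in wild type. The log2 fold change of bath-5 was -1.32 ± 0.26 (limma adjusted p = 0.000619). For bath-4, at 4.37, 7.49, 6.45 and 7.04 CPM in the null and 2.17, 2.52, 3.22 and 2.88 CPM in granulin 2, it was -1.21 ± 0.34 (limma adjusted p = 0.0134). For bath-3, at 5.0, 5.64, 6.17 and 6.53 CPM and 2.58, 4.03, 3.05 and 2.98 CPM, it was -0.89 ± 0.22 (limma adjusted p = 0.00538). For these 3 genes every granulin 2 library lay below every null library. Outside the run, math-45 was lower at -1.46 ± 0.46 (limma adjusted p = 0.0248), bath-39 at -1.07 ± 0.33 (limma adjusted p = 0.0246) and bath-9 at -1.03 ± 0.33 (limma adjusted p = 0.0289). The math-45 call did not hold without granulin 2 replicate 1 or 3 or null replicate 4 (log2 fold changes -1.32 to -1.38, limma adjusted p = 0.0632 to 0.0751), the bath-39 call without null replicate 1 or 4 or granulin 2 replicate 1 or 4 (log2 fold changes -0.78 to -1.07, limma adjusted p = 0.0512 to 0.104) and the bath-9 call without null replicate 1 or 3 or granulin 2 replicate 3 or 4 (log2 fold changes -0.91 to -1.07, limma adjusted p = 0.0528 to 0.0897). Levels of math-45 were 3.25, 3.20, 5.24 and 7.92 CPM in wild type, 3.18, 3.45, 3.37 and 5.0 CPM in the null, 2.01, 2.74, 8.5 and 2.96 CPM in granulin 1 and 1.09, 1.81, 1.10 and 1.39 CPM in granulin 2, which was also called below wild type at -1.77 ± 0.46 (limma adjusted p = 0.0074). For bath-3 and bath-9 in granulin 2 against the null, the call was lost without scaling beyond depth (limma adjusted p = 0.0888 to 0.122). For bath-39 in granulin 2 against the null, the call was also lost without scaling beyond depth and with the 2 strains alone (limma adjusted p = 0.0557 to 0.126). For math-45 in granulin 2 against wild type, the call was lost without scaling beyond depth (limma adjusted p = 0.0627). None of bath-3, bath-4, bath-5, bath-9 and bath-39 was called in granulin 2 against wild type. The null was the highest of the 5 strains in bath-2, bath-4, bath-5, bath-9, bath-27 and bath-39.

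Adjacent to bath-3, bath-1 and bath-21 had their lowest mean levels in granulin 2 and the next lowest in the null, the order also seen in math-44. Levels of bath-1 (chromosome II, 2027612 to 2028812, minus strand) were 5.54, 5.36, 5.87 and 6.27 CPM in wild type, 2.36, 3.57, 2.62 and 3.49 CPM in the null and 6.14, 6.37, 3.64 and 11.7 CPM in granulin 1. In granulin 2 they were 1.79, 1.78, 2.10 and 1.93 CPM and in granulin 3 5.79, 7.08, 7.22 and 6.86 CPM. Granulin 2 lay below all 16 other libraries. It was below wild type at -1.59 ± 0.28 (limma adjusted p = 0.000216) and below granulin 1 at -1.74 ± 0.28 (limma adjusted p = 0.000154), and granulin 3 exceeded it by 1.81 ± 0.28 (limma adjusted p = 0.000386). Granulin 3 exceeded the null by 1.17 ± 0.28 (limma adjusted p = 0.0085). The null minus wild type value of -0.95 ± 0.28 (limma adjusted p = 0.259), the granulin 2 minus null value of -0.64 ± 0.28 (limma adjusted p = 0.124) and the granulin 1 minus null value of 1.10 ± 0.28 (limma adjusted p = 0.124) were not called. Levels of bath-21 were 1.83, 2.27, 1.86 and 1.57 CPM in wild type, 0.867, 1.62, 0.854 and 1.28 CPM in the null, 2.87, 2.34, 1.43 and 4.05 CPM in granulin 1, 0.883, 0.729, 0.650 and 0.567 CPM in granulin 2 and 2.47, 3.01, 2.99 and 2.27 CPM in granulin 3. For bath-21 granulin 2 was below wild type at -1.38 ± 0.31 (limma adjusted p = 0.00239) and below granulin 1 at -1.80 ± 0.31 (limma adjusted p = 0.00027), granulin 3 exceeded granulin 2 by 1.89 ± 0.31 (limma adjusted p = 0.000669), and granulin 3 exceeded the null by 1.24 ± 0.31 (limma adjusted p = 0.011). The last call did not hold without null replicate 3 (log2 fold change 1.11, limma adjusted p = 0.0504). The null libraries of bath-21 overlapped both wild type and granulin 2, and neither difference was called. For bath-21 in granulin 3 against the null, the call was also lost without the 5 libraries of lowest slope (limma adjusted p = 0.08). For bath-21 in granulin 2 against wild type, the call was lost without scaling beyond depth (limma adjusted p = 0.112). The annotated span of bath-21 shares 942 bases with cya-2 on the same strand. Against wild type cya-2 was higher in granulin 2, by 1.02 (limma adjusted p = 0.0394), opposite to bath-21 and bath-1, and it was opposite to them also in granulin 2 against granulin 1 and in granulin 3 against granulin 2. The letters E to H are shared by the null and granulin 2, the 2 strains with the lowest means, and cannot be told apart from them.

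**Figure D4:**
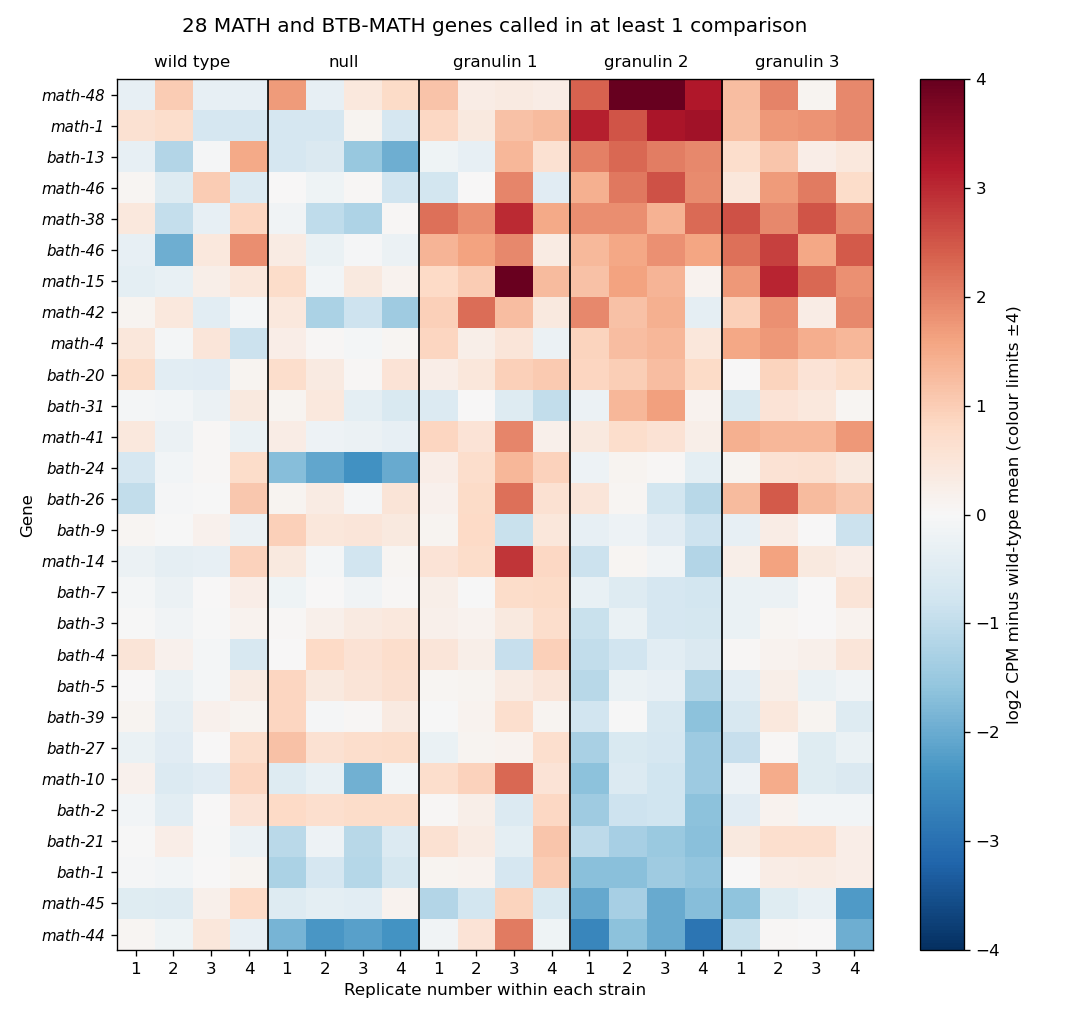
Level of each of the 28 members with at least 1 call in 20 libraries, as log2 CPM minus the gene's wild-type mean (colour, limited to ±4). Rows are ordered by the granulin 2 value and columns are the 4 replicates of each strain. Genes at the top, such as math-48 and math-1, are red in granulin 2, genes at the bottom, such as bath-1, math-45 and math-44, are blue there, and granulin 1 replicate 3 is red in most math- rows.

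Between granulin 2 and granulin 1 there were 18 calls, 5 with granulin 2 higher and 13 with it lower (30.5% of tested members, against 18.9% of all genes). The higher ones were 8.47% of members, against 14.8% of all genes, and the lower ones 22%, against 4.12%. Among protein-coding genes alone the split was 2 higher and 18 lower. Besides those given above, granulin 2 was lower in math-10, math-14, bath-7, bath-5, bath-3, math-45 and bath-39, and higher in bath-31. The largest of these differences was that of math-10, at 1.25, 1.46, 3.83 and 1.14 CPM in granulin 1 and 0.226, 0.513, 0.424 and 0.259 CPM in granulin 2, with a log2 fold change of -2.22 ± 0.52 (limma adjusted p = 0.00388). For its neighbour math-14, at 6.10, 7.07, 30.7 and 7.50 CPM and 2.29, 4.44, 3.8 and 1.86 CPM, it was -1.77 ± 0.48 (limma adjusted p = 0.0115). For both genes every granulin 1 library lay above every granulin 2 library. The log2 fold change was -0.98 ± 0.25 (limma adjusted p = 0.00775) for bath-7, -0.99 ± 0.22 (limma adjusted p = 0.00273) for bath-3 and -0.96 ± 0.26 (limma adjusted p = 0.0108) for bath-5, -1.36 ± 0.46 (limma adjusted p = 0.0418) for math-45 and -0.99 ± 0.33 (limma adjusted p = 0.0431) for bath-39. The math-45 call did not hold without granulin 1 replicate 3 or 4 or granulin 2 replicate 1, 3 or 4 (log2 fold changes -0.93 to -1.43, limma adjusted p = 0.0543 to 0.133) and the bath-39 call without granulin 1 replicate 1, 2, 3 or 4 or granulin 2 replicate 1, 3 or 4 (log2 fold changes -0.69 to -1.06, limma adjusted p = 0.0501 to 0.173). Levels of bath-31 were at most 0.735 CPM and overlapped, with 1.23 ± 0.42 (limma adjusted p = 0.0453), lost in fits without granulin 1 replicate 1, 3 or 4 or granulin 2 replicate 2 or 3 (log2 fold changes 0.93 to 1.23, limma adjusted p = 0.0679 to 0.169). For math-14 and bath-7 in granulin 2 against granulin 1, the call was lost with the 2 strains alone (limma adjusted p = 0.0597 to 0.0616). For bath-3 and bath-5 in granulin 2 against granulin 1, the call was lost without scaling beyond depth (limma adjusted p = 0.0513 to 0.0769). For math-45 and bath-39 in granulin 2 against granulin 1, the call was also lost without scaling beyond depth, with voom weights and with the 2 strains alone (limma adjusted p = 0.0504 to 0.144). For bath-31 in granulin 2 against granulin 1, the call was also lost without scaling beyond depth, with a prior count of 0.5, with no filter, among protein-coding genes alone, with the 2 strains alone and without the 5 libraries of lowest slope (limma adjusted p = 0.0557 to 0.277). Against wild type the remaining call in granulin 2 was bath-20, at 0.731, 0.312, 0.303 and 0.466 CPM in wild type and 0.793, 0.871, 1.05 and 0.745 CPM in granulin 2, a log2 fold change of 0.96 ± 0.33 (limma adjusted p = 0.0433) that was lost in fits without wild-type replicate 2 or 3 or granulin 2 replicate 1, 2, 3 or 4 (log2 fold changes 0.81 to 1.03, limma adjusted p = 0.0529 to 0.149). For bath-20 in granulin 2 against wild type, the call was also lost without scaling beyond depth, with no filter, with voom weights, among protein-coding genes alone, with the 2 strains alone and without the 5 libraries of lowest slope (limma adjusted p = 0.0528 to 0.204).

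Granulin 3 and granulin 2 differed in 6 members, 4 higher and 2 lower in granulin 3 (10.2% against 5.39% of all genes, with 1.72% higher and 3.67% lower). Without scaling beyond depth the split was 5 to 0, and among protein-coding genes alone 8 to 1. Of these only bath-26 is not described above. Levels of bath-26 were 0.498, 0.371, 0.198 and 0.146 CPM in granulin 2 and 0.887, 2.05, 0.872 and 0.764 CPM in granulin 3, with no overlap and a log2 fold change of 1.84 ± 0.49 (limma adjusted p = 0.0309). It was lost in fits without granulin 3 replicate 2 or 3 or granulin 2 replicate 3 or 4 (log2 fold changes 1.52 to 1.93, limma adjusted p = 0.0614 to 0.113). For bath-26 in granulin 3 against granulin 2, the call was also lost with the 2 strains alone and without the 5 libraries of lowest slope (limma adjusted p = 0.0529 to 0.145). This gene overlaps bath-46 by 28 bases on the opposite strand, and the strand setting of the counting is not stated in these sources.

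The longest run held both higher and lower members in granulin 2. Against the null 3 of its 20 tested members were called higher and 4 lower in granulin 2, 6 higher and 0 lower in granulin 3, and 2 higher and 0 lower in granulin 1. Of all genes 17.5% were called higher and 4.19% lower in granulin 2. These shares were 11.2% and 1.57% in granulin 3, and 0.432% and 0.0381% in granulin 1. The higher ones in granulin 2 include math-1 and math-48, which entered the test only through granulin 2 and granulin 3. Within the run bath-24 and math-1, which are adjacent, were both higher in granulin 2 and 3 than in the null, and bath-3 and bath-5, also adjacent, were both lower in granulin 2. Between them lie bath-19 and bath-20, which were not called against the null. In granulin 2 against granulin 1 bath-24 and math-1 were called in opposite directions, at -0.92 and 2.15. In granulin 2 and 3 against wild type math-1 was called and bath-24 was not. Of the 7 members of the run from bath-28 to bath-9, bath-27 and bath-9 were called, both lower in granulin 2. Taking each member call with the gene on either side, a neighbour outside the family was called in the same direction in 17 instances, in the opposite direction in 8, and was not called in 54. A neighbour of the family was called in the same direction in 14, the opposite in 2 and not called in 36. Another 25 instances outside the family and 2 within it had an untested neighbour. Where both of 2 adjacent members were called, the pair was counted from each side, and the comparisons share libraries. No such count was made over all genes. Called neighbours not named elsewhere were F52C6.4 beside bath-2, F25H9.2 beside bath-39 and F59H6.15 beside bath-21. In granulin 2 against the null the first 2 were lower like their members, at -1.45 (limma adjusted p = 0.00224) and -0.96 (limma adjusted p = 0.0498). F59H6.15 was higher in granulin 2 than in wild type, by 4.59 (limma adjusted p = 1.75e-05), opposite to bath-21. In granulin 3 against the null both were higher.

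**Figure D5:**
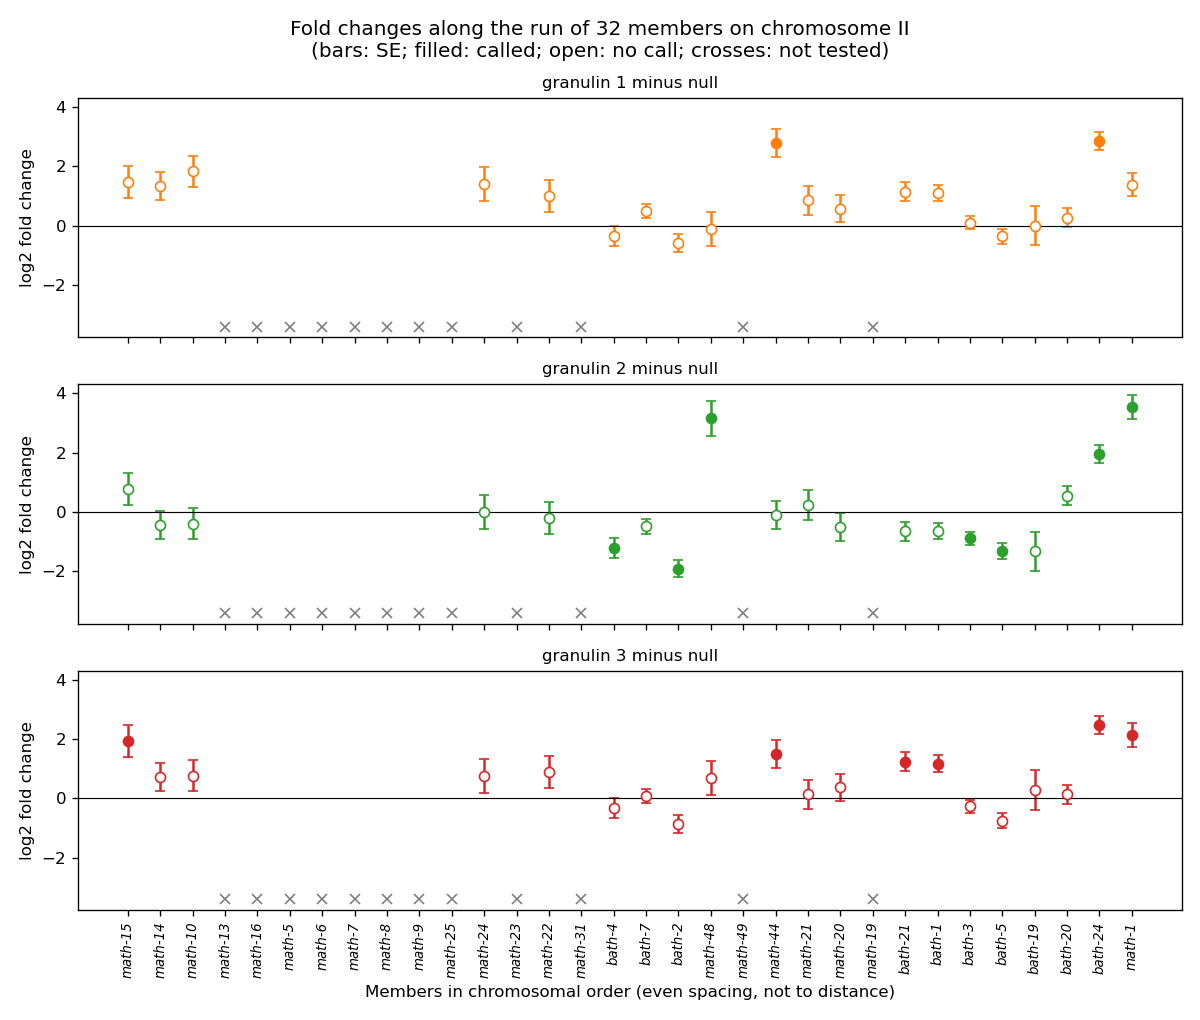
Log2 fold change against the null in granulin 1, granulin 2 and granulin 3 (y axis, bars ± SE) of the 32 members in the run from math-15 to math-1, in chromosomal order and evenly spaced (x axis). Filled points were called by limma, open ones were not, and crosses mark 12 members that were not tested. Of the filled points, granulin 2 has 3 above and 4 below 0, and all 6 of granulin 3 lie above 0.

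One library held the highest level of many members. Granulin 1 replicate 3, the library with the lowest length slope, was the highest of 20 for 21 of 59 tested members (35.6%), 17 of them among the 24 tested math- genes, where it was the highest for 23.7% of all genes. Granulin 1 replicate 4 was the highest for 11 members (18.6%, against 1.94% of all genes), and granulin 2 replicate 4 the lowest for 18 (30.5%, against 14.7%). Leaving out granulin 1 replicate 3 changed the members called in granulin 1 against the null from 3 to 5. Without the 5 libraries of lowest slope, the counts against the null were 3 in granulin 1, 17 in granulin 2 (8 higher and 9 lower, 15 of them shared with the fit to all libraries) and 15 in granulin 3 (11 higher and 4 lower, 11 of them shared). These libraries were chosen after seeing the data. Of the 79 calls of members in all comparisons, 15 were lost without them.

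The members nearest to the threshold without a call were, against the null, bath-23 in granulin 2, at 1.07 ± 0.39 (limma adjusted p = 0.0552), and bath-2 and bath-5 in granulin 3, at -0.86 ± 0.29 (limma adjusted p = 0.0588) and -0.75 ± 0.26 (limma adjusted p = 0.063). Against wild type they were bath-26 in granulin 3, at 1.51 ± 0.49 (limma adjusted p = 0.0517), and bath-3 and bath-5 in granulin 2, at -0.63 ± 0.22 (limma adjusted p = 0.055) and -0.72 ± 0.26 (limma adjusted p = 0.061). Between granulin 2 and 1, math-18 had a value of -1.21 ± 0.44 (limma adjusted p = 0.0596). A missed threshold does not show that the strains had equal levels.

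Among the partners of the family, 18 genes of the Cullin 3 ligase, its neddylation cycle and the MEL-26 pathway were tested. In granulin 2, rfl-1, a subunit of the enzyme that activates the ubiquitin-like protein NED-8, was lower than the null at -0.77 ± 0.26 (limma adjusted p = 0.0392), and ubc-12, the conjugating enzyme of the same cycle, was lower than wild type at -1.08 ± 0.35 (limma adjusted p = 0.0369). No other call was made in this list in any comparison, and cul-3 and mel-26 had none. The median log2 fold change of the list in granulin 2 against the null was -0.62, beside 0.04 for all genes. It was -0.32 in granulin 1 and -0.37 in granulin 3 against the null, beside 0.04 and 0.07. A further list held 24 other cullins and Skp1-related genes, of which the Skp1-related ones serve F-box ubiquitin ligases. In it skr-5 was called higher than the null in all 3 granulin strains. The log2 fold changes were 2.98 ± 0.51 (limma adjusted p = 0.00435) in granulin 1, 2.59 ± 0.51 (limma adjusted p = 0.000622) in granulin 2 and 4.0 ± 0.51 (limma adjusted p = 5.48e-05) in granulin 3. In granulin 2, skr-8, skr-9, skr-10, skr-12 and skr-13 were also higher than the null, by 1.23 to 2.32 log2 units, and skr-16 was lower at -1.19 ± 0.41 (limma adjusted p = 0.043). With skr-5, the 6 higher ones were 25% of this list, against 17.5% of all genes, and the lower one 4.17%, against 4.19%. The median log2 fold change of the list in this comparison was -0.20, beside 0.04 for all genes.

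Of 20 tested BTB genes named btb- or kel-, 6 were higher and 2 lower in granulin 2 than in the null, and 4 were higher in granulin 3, beside 17.5% of all genes higher and 4.19% lower in granulin 2 and 11.2% higher in granulin 3. The largest were kel-10, at 4.0 ± 0.52 (limma adjusted p = 1.09e-05) and 2.65 ± 0.52 (limma adjusted p = 0.00195), and btb-2, at 3.76 ± 0.54 (limma adjusted p = 2.96e-05) and 2.31 ± 0.54 (limma adjusted p = 0.00702). Next to bath-5 on chromosome II, btb-4 was lower in granulin 2 than in granulin 1 at -2.01 ± 0.46 (limma adjusted p = 0.00354). In granulin 2 btb-8, btb-10, btb-11 and btb-12 were also higher than the null, and kel-3 and btb-19 lower, and in granulin 3 btb-12 and btb-17 were higher. Of 117 tested genes of the F-box A family, another expanded family of ubiquitin ligase adaptors, 25 were higher and 10 lower in granulin 2, 15 and 6 in granulin 3 and 4 and 0 in granulin 1 against the null. The higher ones were 21.4% of those tested in granulin 2 and 12.8% in granulin 3, near the 17.5% and 11.2% of all genes. The lower ones were 8.55% and 5.13%, against 4.19% and 1.57% of all genes. In granulin 1 the higher ones were 3.42%, against 0.432%. The 4 in granulin 1 were fbxa-125, fbxa-188, fbxa-189 and fbxa-192. In the null against wild type fbxa-192 was lower at -4.07 ± 0.38 (limma adjusted p = 4.81e-06) and fbxa-125 at -3.14 ± 0.60 (limma adjusted p = 0.0288), the direction of bath-24.

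The members called in most comparisons were math-1 and math-38, with 6 each. The gene math-1 entered the test only through granulin 2 and granulin 3, so its calls were partly built into its selection. Over the 5 strain means of log2 CPM, the genes called by the F test whose pattern was most like that of math-1 were C35D10.3 (Pearson r = 0.999), F46C5.6, Y18H1A.11, Y69F12A.1 and daf-6, which acts in the glia of sense organs. For math-38 they were dyf-3, a cilium gene (r = 0.992), C35A5.10, math-42 (r = 0.988), the F-box gene fbxa-188 and a pseudogene. These values describe 5 points that share their libraries and were the highest among 3379 genes.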

How the data were processed

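RNA of 20 libraries, 5 strains with 4 each, was made with a stranded total RNA kit, per the labels' protocols. The values deposited by the authors are log2 CPM with a prior count of 2, per gene and library. The submitters' processing notes name STAR, HTSeq, edgeR, limma and the build ce11, with no role or version. The strand setting of the counting, and its treatment of reads shared by similar copies, are not stated in these sources. Reads were recovered from the deposited values, and libraries held 48279370 to 128776517 of them, so that 10 reads in the median library were worth 0.177 CPM.

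Genes with 0.177 CPM or more in 4 libraries and 15 reads in all were tested, 15737 in number. Libraries were scaled by trimmed means of M values (30% and 5% trims), and log2 CPM with a prior count of 2 was fitted in limma 3.58.1 (R 4.3.3; trend and robust) with 1 mean per strain. The call was a Benjamini-Hochberg adjusted p under 0.05 over all tested genes. The fit was tested on simulated data. Printed CPM are scaled CPM. Counting intervals cover counting error only. Other steps used Python 3.11.15 with numpy 2.4.6 and pandas 2.3.3.

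Members called in at least 1 of 10 comparisons were named, with each library's values for the 10 largest changes. Uncalled members were named with values only among the 5 highest per kilobase in wild type or nearest the threshold, except bath-15, and otherwise only for position, overlap or lack of reads. Genes neighbouring called members were named where called, and only some of the called genes of the lists were named. The members and lists were chosen with earlier results of these data known. Gene positions and lengths came from an Ensembl annotation of the same assembly. Deviations of libraries with the same letter correlated from -0.59 to 0.58, over 0.1 in 8 of 16 pairs. This did not settle whether the letters pair the libraries, and the main fit has no block. Alternatives were scaling, prior count, filter, voom weights, protein-coding genes alone, a length-slope covariate, each pair of strains alone, the letter as a block, and leaving out each library or the 5 with the lowest length slopes.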

Additional observations from a re-analysis of the deposited data

Results flagged for a closer look

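Among 140 groups of 4 libraries, 10 held a library farther from the rest than Dixon's 95% critical value allows, where chance flags about 1 in 20 groups. In wild type these were a low replicate 2 of bath-39, at 4.78 CPM with the others at 6.61 to 6.94, a high replicate 4 of math-14, at 7.96 CPM with the others at 3.27 to 3.55, and replicate 2 of math-48, at 0.0445 CPM with the others at 0. In the null, replicate 1 of bath-9 stood at 5.95 CPM with the others at 4.0 to 4.25, and replicate 3 of math-1 held 0.0199 CPM with the others at 0, which is a single read. In granulin 1, replicate 3 was high for math-14, at 30.7 CPM with the others at 6.10 to 7.50, and for math-15, at 2.19 CPM with the others at 0.225 to 0.320. Replicate 1 of granulin 1 held 0.0519 CPM of math-48, with the others at 0.0155 to 0.0181. In granulin 3, replicate 2 was high for math-14, at 12.9 CPM with the others at 4.94 to 5.47, and for bath-26, at 2.05 CPM with the others at 0.764 to 0.887. The high libraries of math-14 were wild-type replicate 4, granulin 1 replicate 3 and granulin 3 replicate 2, of which the last 2 have low length slopes.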

How the results depend on the processing

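The calls of single members gave 79 results and 1284 alternatives, of which 1075 kept direction and call, 209 kept direction and lost the call, and 0 turned direction. In 38 results the call was never lost. The cause was not tested for the changes below. Without scaling beyond depth the members called were 0 for null against wild type, 11 for granulin 2 against the null, 8 and 11 for granulin 2 and granulin 3 against wild type, 10 for granulin 2 against granulin 1 and 0 for granulin 3 against granulin 1, and the median of all genes lay between -0.19 and 0.81 (log2) over the comparisons. With no filter, and with protein-coding genes alone, granulin 3 against granulin 1 had 0. With a length-slope covariate the counts were 2 for null against wild type, 5 for granulin 1 and 20 for granulin 3 against the null, 23 and 10 for granulin 2 and 3 against wild type, 28 for granulin 2 against 1, 4 and 18 for granulin 3 against 1 and 2, and 34 by the F test, while the calls among all genes rose from 31 to 298, 74 to 128, 2006 to 3612, 2888 to 4938, 1766 to 2594, 2974 to 4807, 878 to 2021, 849 to 2235 and 3379 to 6441, in the same order. With the 2 strains alone the single call for null against wild type was not bath-24, and the counts were 1 for granulin 1 against the null, 0 for granulin 1 against wild type, 9 for granulin 2 against 1 and 0 for granulin 3 against 1. Without the 5 libraries of lowest slope, chosen after seeing the data, they were 2 for null against wild type, 0 for granulin 1 against wild type, and 4 and 3 for granulin 3 against 1 and 2.

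Leaving out 1 library at a time gave 16 to 22 by the F test, 0 to 1 for null against wild type, 2 to 5, 12 to 16 and 8 to 12 for granulin 1, 2 and 3 against the null, 0 to 1, 10 to 14 and 6 to 7 against wild type, 14 to 17 for granulin 2 against 1, and 0 to 2 and 2 to 7 for granulin 3 against 1 and 2. With the letter as a replicate block the counts were 16 for granulin 2 against the null, where bath-46 was lost, 1 and 6 for granulin 1 and 3 against wild type, and 1 for granulin 3 against 1. What the letters mark is not known: 7 of 20 libraries correlated best with their own letter, which does not settle whether the letters pair libraries. Genes under about 10 reads a library, math-1, math-48 and math-46 among them, are limited by depth.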
